A study of Mus musculus with 5 samples.

Results

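The electron transfer flavoprotein relay and the auxiliary enzymes of unsaturated fat oxidation were described through 8 genes, picked by symbol from the 17015 genes of the deposited table: Etfa, Etfb and Etfdh, Decr1, Eci2 and Ech1, and the dehydrogenase relatives Acad9 and Acad11. All 8 were present and all 8 passed the minimum mean of 0.5 FPKM (fragments per kilobase of transcript, adjusted for sequencing depth) that left 12148 genes for testing. The tissue was tibialis anterior (TA), a fast-twitch muscle of the lower leg, taken from sedentary male mice 8 weeks old. Mice with loxP sites around the coding exon of Nrip1, which encodes the nuclear receptor coregulator RIP140, on C57BL/6J were bred with C57BL/6JN mice carrying Cre under the myogenin promoter, which is active in the skeletal muscle lineage. The 2 libraries labelled skmNrip1-/- were set against 3 WT control libraries from Cre-negative littermates, and the labels number the libraries without naming animals, so p-values measure the spread between these samples only. The study describes more mice for the skmNrip1-/- group than the libraries used here, and the remainder are not analysed here. The comparison asks how these transcripts differ in skeletal muscle meant to lack RIP140.

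In beta-oxidation, acyl-CoA dehydrogenases pass electrons to the electron transfer flavoprotein, a soluble heterodimer of the Etfa and Etfb products in the mitochondrial matrix. The Etfdh product, electron transfer flavoprotein dehydrogenase, sits in the inner membrane and hands these electrons to ubiquinone, so that every FAD-linked acyl-CoA dehydrogenase of the matrix depends on the same relay. Inherited loss of any of the 3 proteins causes multiple acyl-CoA dehydrogenase deficiency, in which lipid builds up in muscle. Unsaturated fatty acids carry double bonds that the core cycle cannot process, and isomerases and a reductase move or remove them before the cycle goes on.

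Nrip1 itself went against the labels. Its FPKM was 4.64, 7.69 and 6.55 in WT control and 25.3 and 22.5 in the libraries labelled skmNrip1-/-, a log2 fold change of 1.94 (SE 0.21, adjusted p = 0.026, limma with Benjamini-Hochberg adjustment). To check the line, the study measured Nrip1 expression and RIP140 protein in gastrocnemius and heart, not in the TA libraries used here. A gene-level FPKM does not show which exons the fragments came from, and directions below are given for the libraries as labelled. Summed FPKM was 969144 to 1144714 in WT control and 1286254 to 1288038 in the libraries labelled skmNrip1-/-, and genes encoded by mitochondrial DNA took 45.4% to 50.7% and 58.6% to 60.9% of it. The number of fragments behind each FPKM value is unknown. Across all tested genes the median log2 fold change was -0.00 as deposited, -0.29 after rescaling each library to TPM (a total of 1000000 over all genes), and 0.07 after rescaling over nuclear genes alone. As deposited, 45 genes were called higher and 10 lower, and under TPM 30 were called higher and 63 lower. The share of mitochondrial transcripts and the scaling move with the groups, and their part in the results below was not tested.

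The promoters of the relay are shown because the products of its 3 genes work as 1 chain. All 3 were higher in both labelled libraries than in every WT control library, as were all 8 genes and 15.8% of all tested genes. Each window runs from 250 bases before to 50 bases after the RefSeq transcription start (GRCm38.p6), 5′ to 3′ on the strand of the gene, and capitals mark a match to GCGCATGCG, the core of the element bound by NRF1, a transcription factor of respiratory chain genes.
Etfa, chr9:55512194-55512493, minus strand: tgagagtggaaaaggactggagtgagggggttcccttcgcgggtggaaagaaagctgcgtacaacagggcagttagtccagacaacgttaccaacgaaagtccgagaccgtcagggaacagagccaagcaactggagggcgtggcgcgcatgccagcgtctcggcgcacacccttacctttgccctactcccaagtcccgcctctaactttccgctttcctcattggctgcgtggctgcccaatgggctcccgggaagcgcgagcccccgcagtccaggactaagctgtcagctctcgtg
Etfb, chr7:43443822-43444121, plus strand: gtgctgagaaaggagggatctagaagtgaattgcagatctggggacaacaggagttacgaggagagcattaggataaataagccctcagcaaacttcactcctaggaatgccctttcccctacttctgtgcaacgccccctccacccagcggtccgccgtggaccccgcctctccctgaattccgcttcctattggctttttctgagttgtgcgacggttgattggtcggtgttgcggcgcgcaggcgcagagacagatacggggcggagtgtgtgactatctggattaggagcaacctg
Etfdh, chr3:79628718-79629017, minus strand: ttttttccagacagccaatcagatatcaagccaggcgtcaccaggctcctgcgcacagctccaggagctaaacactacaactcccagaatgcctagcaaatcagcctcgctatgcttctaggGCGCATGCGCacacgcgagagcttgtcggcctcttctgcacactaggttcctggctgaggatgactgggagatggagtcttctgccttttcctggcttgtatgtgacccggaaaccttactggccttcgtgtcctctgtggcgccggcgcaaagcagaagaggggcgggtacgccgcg
The Etfdh window held this core on both strands, in overlapping matches that begin at positions -128 and -127 from the start site. The Etfa and Etfb windows did not hold it, nor did those of Eci2, Ech1 and Acad11, and it was found in 1.75% of 32851 RefSeq promoter windows of the same length. No member window held AGGTCA, the half-site of many nuclear receptors (16.3% of all windows), TNAAGGTCA, the longer form bound by estrogen-related receptors (1.28%), or a pair of AGGTCA units in direct repeat with 1 base between them (0.0396%). Both strands were searched for each, and AGGTCA is contained in each of the last 2. GC content was 60.3% in the Etfa window, 55.3% in that of Etfb and 57.3% in that of Etfdh. RefSeq windows were matched for 6 of the 8 genes, and Decr1 and Acad9 had none.

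All 8 genes stood higher in both libraries labelled skmNrip1-/- than in every WT control library, a separation found in 15.8% of all tested genes. At an unadjusted p of 0.05 or less, 7 of the 8 were higher, against 6.57% of all tested genes. Under the call used here, an adjusted p of 0.05 or less with a fold change of at least 1.2, only Etfa passed, against 0.37% of all tested genes called higher. The log2 fold changes ran from 0.24 for Acad11 to 0.83 for Etfdh, with a median of 0.61. After rescaling to TPM the median was 0.31, 6 of the 8 remained separated, with Etfb and Acad11 overlapping between groups, against 2.74% of all genes tested under TPM. On that scale 4 of the 8 were higher at an unadjusted p of 0.05 or less, against 1.3% of all genes, and none was called, against 0.252%.

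**Figure D1:**
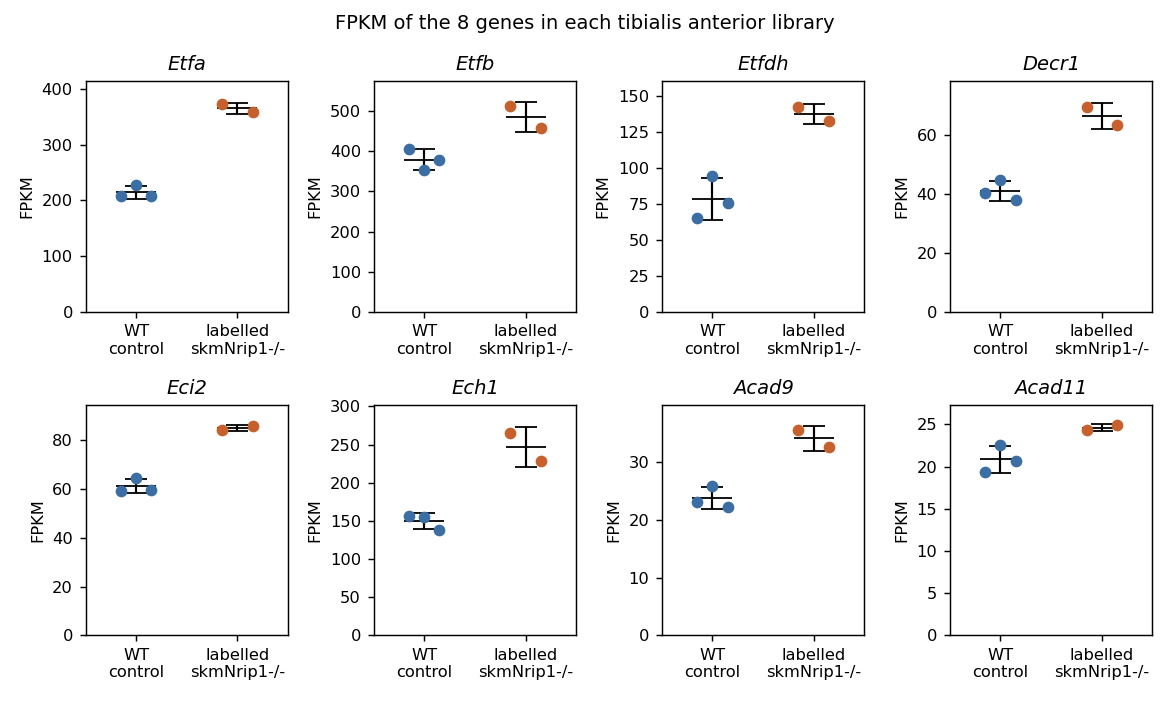
Deposited FPKM (vertical axes, each from 0) of the 8 genes in each library, with WT control (n = 3) in blue and the libraries labelled skmNrip1-/- (n = 2) in orange; points are libraries, long bars group means and error bars SD. In every panel both orange points lie above all blue points, by as little as 7.92% for Acad11 and as much as 58.0% for Etfa.

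Etfa (ENSMUSG00000032314), the alpha subunit of the flavoprotein, lies on the minus strand of chromosome 9 at 55454508 to 55512243 (GRCm38). Its FPKM was 208, 227 and 207 in WT control and 372 and 359 in the libraries labelled skmNrip1-/-. The groups were far apart for their spread, with the lower labelled library 58.0% above the highest WT control library. The means were 214 ± 11.0 (SD, n = 3) and 365 ± 9.65 (SD, n = 2), a log2 fold change of 0.77 (SE 0.10, adjusted p = 0.048, limma) and a fold of 1.71 (95% interval 1.44 to 2.03). Etfa rose under this call, but the adjusted p was close to its limit. In the other fits with at least 2 libraries per group it ran from 0.0414 to 0.254 (limma). Counting a rescaling by each library's median ratio to the geometric mean, which was 1 in every library and so changed almost nothing, 3 of 15 other fits kept the call. Leaving out any single library ended it, while the log2 fold change stayed between 0.74 and 0.81 in those fits.

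Etfb (ENSMUSG00000004610), the beta subunit, lies on the plus strand of chromosome 7 at 43444083 to 43457800. It was the most abundant of the 8, at 405, 352 and 379 FPKM in WT control and 513 and 459 FPKM in the labelled libraries. The labelled libraries were again the higher, but the gap between the nearest libraries was 13.3% and the call was not made. The mean was 379 ± 26.3 (SD, n = 3) against 486 ± 38.1 (SD, n = 2), with a log2 fold change of 0.36 (SE 0.12, adjusted p = 0.319, limma), and of 0.06 under TPM. A related gene, Etfbl, overlaps Etfb on the same strand (43444128 to 43463587), so fragments could be divided between them. Etfbl was at or below 1.32 FPKM in every library.

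Etfdh (ENSMUSG00000027809) lies on the minus strand of chromosome 3 at 79603788 to 79629500. It stood at 64.8, 94.3 and 75.8 FPKM in WT control and at 142 and 132 FPKM in the labelled libraries. WT control replicate 2 lay above the other WT control libraries, and the WT control coefficient of variation of 19.0% was the highest of the 8 genes. The log2 fold change of 0.83 (SE 0.17, adjusted p = 0.136, limma) was the largest of the 8 and did not pass, the mean being 78.3 ± 14.9 (SD, n = 3) against 137 ± 6.98 (SD, n = 2). Its neighbors did not share the difference: Ppid, next to its downstream end, had a log2 fold change of -0.04, and 4930579G24Rik, which overlaps its start on the opposite strand, stood at 0.467 to 0.770 FPKM with a log2 fold change of -0.19.

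The 2 subunits of the heterodimer were compared within each library, where the scaling between libraries cancels. The Etfa to Etfb ratio of FPKM was 0.514, 0.644 and 0.547 in WT control and 0.726 and 0.781 in the labelled libraries. Etfb was the more abundant transcript in every library, and the ratio was closer to 1 in the labelled libraries with no overlap between groups. The log2 difference was 0.41, with an exact two-sided permutation p of 0.2 (adjusted p = 0.4 over 6 ratios), the smallest that the 10 arrangements of 3 and 2 libraries allow. The Etfdh to Etfa ratio was 0.311, 0.416 and 0.365 in WT control against 0.382 and 0.369, a log2 difference of 0.06 (exact permutation p = 0.8, adjusted p = 0.96), so the membrane partner and the alpha subunit did not differ in their change beyond the spread of the WT control libraries.

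Decr1 (ENSMUSG00000028223; chromosome 4, 15917240 to 15945507, minus strand) encodes the mitochondrial dienoyl-CoA reductase, which uses NADPH to remove a double bond from conjugated intermediates. Its FPKM was 40.3, 44.5 and 37.7 in WT control and 69.4 and 63.2 in the labelled libraries. The difference, 42.0% between the nearest libraries, exceeded the spread within either group. The mean was 40.8 ± 3.41 (SD, n = 3) against 66.3 ± 4.43 (SD, n = 2), and the log2 fold change of 0.70 (SE 0.11, adjusted p = 0.0932, limma) did not pass the call.

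Ech1 (ENSMUSG00000053898; chromosome 7, 28825217 to 28832247, plus strand) encodes dienoyl-CoA isomerase, which shifts a pair of double bonds into the position that the reductase can use. It stood at 157, 155 and 138 FPKM in WT control and at 265 and 228 FPKM in the labelled libraries. The labelled libraries differed more from each other than the WT control libraries did, yet the lower was still 45.8% above the highest WT control library. The mean was 150 ± 10.1 (SD, n = 3) against 247 ± 26.2 (SD, n = 2), with a log2 fold change of 0.72 (SE 0.12, adjusted p = 0.0953, limma).

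Eci2 (ENSMUSG00000021417; chromosome 13, 34977748 to 35027096, minus strand) encodes an enoyl-CoA isomerase of mitochondria and peroxisomes that moves a double bond into place for hydration. Its FPKM was 59.4, 64.6 and 59.6 in WT control and 84.3 and 85.9 in the labelled libraries. Its WT control coefficient of variation of 4.80% was the lowest of the 8 genes, and the nearest libraries of the groups lay 30.5% apart. The log2 fold change was 0.48 (SE 0.10, adjusted p = 0.143, limma), from 61.2 ± 2.94 (SD, n = 3) to 85.1 ± 1.14 (SD, n = 2), and did not pass. An antisense gene, Gm16984, overlaps Eci2 and is not analysed here.

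The paralogs of these enzymes had smaller log2 fold changes. Decr2, the peroxisomal reductase, was at 1.13 to 1.62 FPKM over the 5 libraries with a log2 fold change of -0.11, and the Decr1 to Decr2 ratio was 28.9, 35.1 and 23.2 in WT control and 45.7 and 56.1 in the labelled libraries. The ratio did not overlap between groups, with a log2 difference of 0.82 (exact permutation p = 0.2, adjusted p = 0.4). Eci1, the mitochondrial isomerase, was the more abundant partner of Eci2 in every library, and the Eci2 to Eci1 ratio was 0.417, 0.458 and 0.385 in WT control and 0.454 and 0.554 in the labelled libraries. These groups overlapped, with a log2 difference of 0.26 (exact permutation p = 0.4, adjusted p = 0.6). Eci1 itself had a log2 fold change of 0.22 and Pecr, a peroxisomal enoyl-CoA reductase, -0.04. The third paralog, Eci3, was below the minimum for testing.

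**Figure D2:**
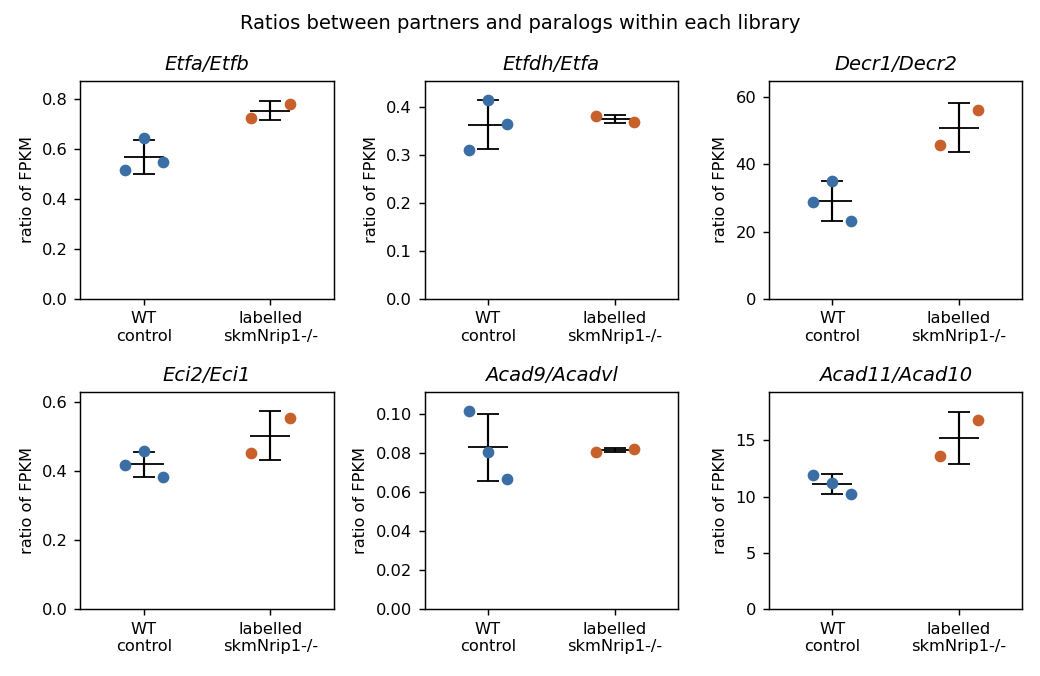
Ratio of FPKM between partners or paralogs within each library (vertical axes, each from 0), with WT control (n = 3) in blue and the libraries labelled skmNrip1-/- (n = 2) in orange; long bars are group means and error bars SD. Etfa/Etfb, Decr1/Decr2 and Acad11/Acad10 did not overlap between groups, while Etfdh/Etfa, Eci2/Eci1 and Acad9/Acadvl did.

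Acad9 (ENSMUSG00000027710; chromosome 3, 36065979 to 36092853, plus strand) is related in sequence to the very long chain dehydrogenase gene Acadvl, and its product is known above all as an assembly factor of respiratory complex I. It stood at 23.1, 25.9 and 22.3 FPKM in WT control and at 35.7 and 32.6 FPKM in the labelled libraries. The groups were 25.8% apart at their nearest, and the call was not made. The log2 fold change was 0.52 (SE 0.11, adjusted p = 0.167, limma), from 23.8 ± 1.92 (SD, n = 3) to 34.2 ± 2.14 (SD, n = 2).

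Acadvl was the more abundant by far, and the Acad9 to Acadvl ratio was 0.102, 0.0806 and 0.0671 in WT control and 0.0809 and 0.0825 in the labelled libraries. Both labelled values fell within the WT control range (log2 difference -0.00, exact permutation p = 1, adjusted p = 1). Of the genes whose products work with ACAD9 in complex I assembly, 5 were tested and none was called. Of these, 4 were above every WT control library and 1 was higher at an unadjusted p of 0.05 or less. Over all tested genes these shares were 15.8% and 6.57%, and 0.37% were called higher. The log2 fold changes of the 5 genes ran from 0.00 for Ecsit to 0.45 for Ndufaf1, with a median of 0.21 as deposited and -0.08 under TPM.

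Acad11 (ENSMUSG00000090150; chromosome 9, 104063377 to 104127725, plus strand) encodes an acyl-CoA dehydrogenase that also carries a kinase-like domain. It was the least abundant of the 8, at 19.4, 22.5 and 20.7 FPKM in WT control and 24.3 and 24.9 FPKM in the labelled libraries. The nearest libraries were 7.92% apart, close to the 7.57% coefficient of variation of WT control. Its log2 fold change of 0.24 (SE 0.11, adjusted p = 0.461, limma) was the smallest of the 8 and became -0.06 under TPM, where the groups overlapped. The mean was 20.9 ± 1.58 (SD, n = 3) against 24.6 ± 0.414 (SD, n = 2), a fold of 1.18 with a 95% interval of 0.986 to 1.41.

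The ratio of Acad11 to its relative Acad10 was 12.0, 11.2 and 10.2 in WT control and 13.6 and 16.9 in the labelled libraries, with no overlap (log2 difference 0.45, exact permutation p = 0.2, adjusted p = 0.4). Acad10 was at 1.48 to 2.02 FPKM, with a log2 fold change of -0.20. Ackr4, which lies on the opposite strand within the span of Acad11, was at 0.183 to 0.302 FPKM.

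The order of levels, compared per length of transcript as FPKM, was the same in both groups: Etfb, Etfa, Ech1, Etfdh, Eci2, Decr1, Acad9 and Acad11 from highest to lowest. Among neighbors in this order, Acad9 and Acad11 overlapped in WT control (lowest Acad9 22.3 FPKM, highest Acad11 22.5 FPKM) but not in the labelled libraries. Etfdh and Eci2 came close in WT control without overlapping (lowest Etfdh 64.8 FPKM, highest Eci2 64.6 FPKM). All 8 lay above the median of 5.92 FPKM over all tested genes. Among WT control libraries, 6 of the 8 were highest in replicate 2 and 2 in replicate 1, and of the labelled libraries, replicate 1 was the higher for 6 and replicate 2 for Eci2 and Acad11. Centred on the WT control mean, the median of the 8 log2 values was -0.04, 0.10 and -0.04 in WT control replicates 1 to 3 and 0.68 and 0.55 in the labelled libraries. The genes whose centred values lay closest to this median over the 5 libraries, by Euclidean distance, were Hadh (0.0672), a dehydrogenase of the core cycle, Yipf1 (0.0950), Lclat1 (0.0979), Mrpl1 (0.103), which encodes a mitochondrial ribosomal protein, and Acadm (0.110), the medium chain acyl-CoA dehydrogenase.

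**Figure D3:**
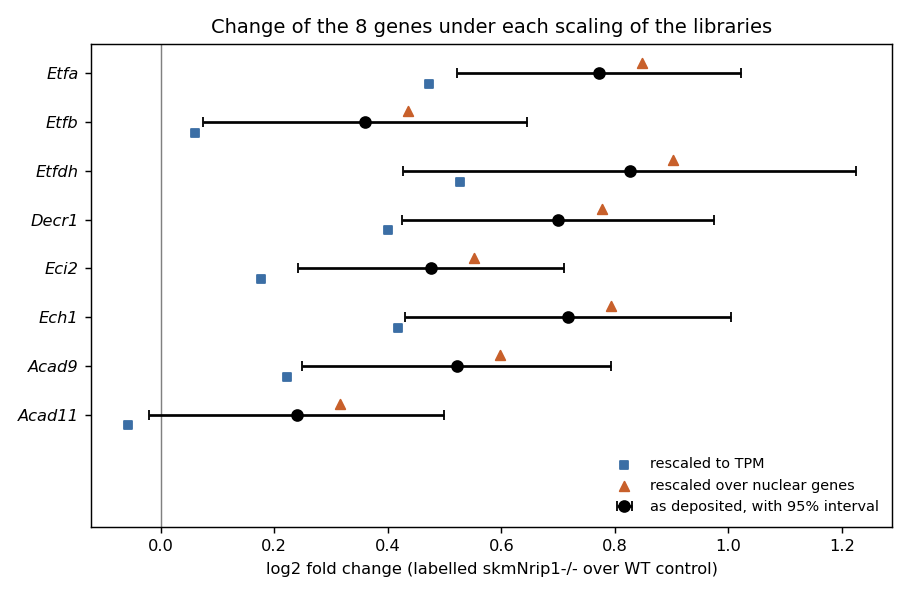
Log2 fold change of each of the 8 genes (horizontal axis, libraries labelled skmNrip1-/- over WT control) as deposited with the 95% interval of the limma fit (black), after rescaling to TPM (blue squares) and after rescaling over nuclear genes (orange triangles). The TPM values lie lowest for every gene, from -0.06 for Acad11 to 0.53 for Etfdh, and the deposited interval of Acad11 alone includes 0.

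The enzymes that feed the relay were then read from a list of 13 ETF-linked dehydrogenases, all tested. None was called, 7 were higher at an unadjusted p of 0.05 or less, and 9 stood above every WT control library. Over all tested genes, 0.37% were called higher, 6.57% were higher at that unadjusted p, and 15.8% stood above every WT control library. Acadl, the long chain dehydrogenase, had the largest log2 fold change, 0.69 (173, 216 and 179 FPKM in WT control, 311 and 298 FPKM in the labelled libraries, adjusted p = 0.116, limma). At the other end Sardh, the sarcosine dehydrogenase, had -0.41 at 0.874 to 2.04 FPKM. The list median was 0.30, and 0.01 under TPM. The summed FPKM of the 4 straight-chain dehydrogenases (Acadvl, Acadl, Acadm and Acads) was 3.21, 3.66 and 3.84 times that of Etfa in WT control and 3.18 and 3.08 times in the labelled libraries. Both labelled values lay below every WT control value, narrowly so for WT control replicate 1 (log2 difference -0.19, exact permutation p = 0.2, the smallest possible, for a ratio chosen after the values were seen).

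Genes for the upkeep of the flavoprotein differed less. Of 7 genes for flavin supply and for maturation or modification of the flavoprotein, 6 were tested, Slc52a3 being below the minimum. None was called, against 0.37% of all tested genes called higher. Etfrf1, a regulator of the flavoprotein, alone stood above every WT control library, as did 15.8% of all tested genes. It had the largest log2 fold change, 0.40 (33.0, 32.0 and 32.4 FPKM in WT control, 43.3 and 42.3 FPKM in the labelled libraries, adjusted p = 0.191, limma). The riboflavin transporter gene Slc52a2 had the smallest, -0.07. The median was 0.11 as deposited and -0.19 under TPM.

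The carnitine shuttle and the core enzymes of beta-oxidation had the highest median of the 5 pathway lists. All 8 of its genes stood above every WT control library, 7 had an unadjusted p of 0.05 or less, and Hadhb, the beta subunit of the trifunctional protein, was called. Over all tested genes these shares, counted in the higher direction, were 15.8%, 6.57% and 0.37%. Hadhb was at 173, 203 and 175 FPKM in WT control and at 366 and 344 FPKM in the labelled libraries (log2 fold change 0.95, adjusted p = 0.038, limma). Cpt1b, the muscle carnitine palmitoyltransferase of the outer membrane, had the smallest log2 fold change, 0.31. The median was 0.71, and 0.41 under TPM. These lists were written with earlier results of these data known, and their counts are descriptions.

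**Figure D4:**
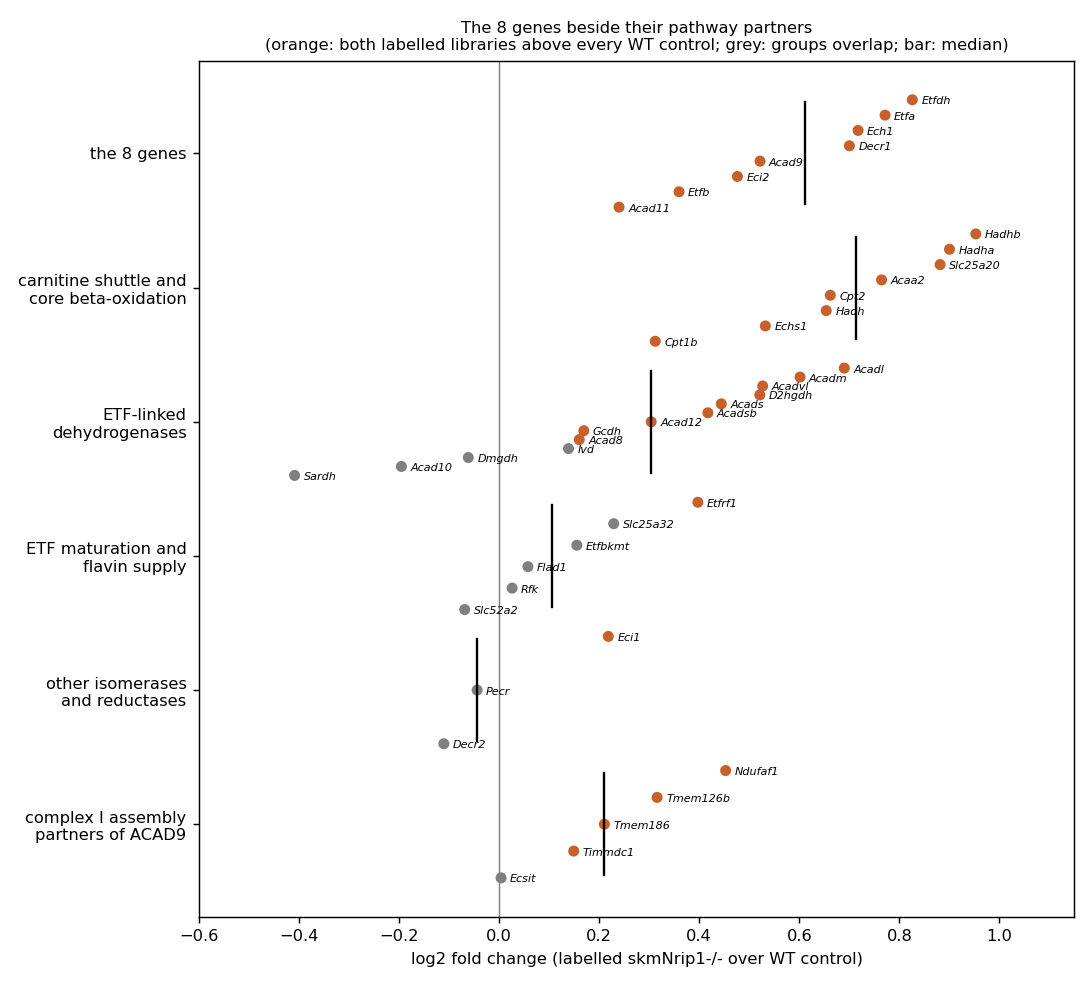
Log2 fold change (horizontal axis, libraries labelled skmNrip1-/- over WT control) of the 8 genes and of 5 lists of pathway partners, 1 point per tested gene and a black bar at each median. Medians run from 0.71 for the carnitine shuttle and core beta-oxidation and 0.61 for the 8 genes to -0.04 for the other isomerases and reductases.

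Because whole muscle was sequenced, fewer cells of a type and less RNA per cell cannot be told apart, and markers of fiber and cell types were read beside the 8 genes. The tissue label fitted its markers: 6 genes listed as fast fiber markers summed to 70506 to 99544 FPKM in WT control and 66227 to 69545 FPKM in the labelled libraries. Their log2 fold changes ran from -0.40 for Acta1 to -0.17 for Tnnt3. Ckm and Acta1, which are not limited to fast fibers, lay below every WT control library. The share of all tested genes that did so was not counted. Myh4, Tnnt3, Tnni2 and Pvalb overlapped between groups. The 6 slow and type 2A fiber markers summed to 238, 348 and 1124 FPKM in WT control and 422 and 450 FPKM in the labelled libraries, WT control replicate 3 standing apart through Myh2 at 1102 FPKM. Within this list Myl2, the slow myosin regulatory light chain gene, had 2.03, 1.85 and 9.68 FPKM in WT control and 42.1 and 33.6 FPKM in the labelled libraries (log2 fold change 3.46, adjusted p = 0.127, limma). Tnni1 had the smallest log2 fold change, -0.20. Myl2 alone stood above every WT control library, as did 15.8% of all tested genes. Myh7, Myh2, Tnnt1, Tnni1 and Tnnc1 overlapped between groups. No fiber marker was called, against 0.37% of all tested genes called higher. The part of these markers in the difference of the 8 genes was not tested.

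Red blood cell markers moved in the same direction as the 8 genes. All 5 were tested and 4 stood above every WT control library, against 15.8% of all tested genes. At an unadjusted p of 0.05 or less 3 were higher, against 6.57%, and none was called, against 0.37% called higher. The 5 markers had log2 fold changes from 0.37 for Alas2 to 0.55 for Hbb-bt. They summed to 511 to 764 FPKM in WT control and 827 to 996 FPKM in the labelled libraries, and their part in the result was not tested. Adipocyte markers summed to 133 to 201 FPKM in WT control and 157 to 163 FPKM in the labelled libraries, mostly Fabp4, and none of the 5 tested separated the groups, from -0.36 for Plin1 to 0.15 for Cfd. Adipoq, which defines adipocytes, was at 0.627 to 1.35 FPKM. Median log2 fold changes were -0.12 for 5 endothelial markers (Kdr 0.07, Emcn -0.14) and -0.00 for 4 macrophage markers (Mrc1 0.39, C1qa -0.33), with none called.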

How the data were processed

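TA muscle RNA was prepared with the NEBNext Ultra kit and sequenced as paired ends. The authors quantified reads with Salmon 1.10.2 on mm10 and summed transcripts to genes with tximport (versions from the submitters' processing notes), and deposited FPKM per gene and library. How FPKM was computed and from which annotation release is not given in the sources used here. Each library's median ratio to the geometric mean over libraries was 1, so the deposited values were already level between libraries by that measure. The deposited table also holds the authors' DESeq2 1.44.0 log2 fold changes and adjusted p-values, which were not used.

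Libraries were grouped by their labels. As counts were not among the values analysed, differences were fitted with limma 3.58.1 in R 4.3.3 (lmFit, eBayes with trend) on log2(FPKM + 0.1), a scale that understates changes of low genes. Benjamini-Hochberg adjustment covered the 12148 genes whose mean reached 0.5 FPKM. The call thresholds (adjusted p 0.05, fold 1.2) follow the study. The steps were tested on simulated data. At a simulated log2 change of 1, 75 of 104 genes were called, and at a change of 2, 88 of 96. Of 11948 genes simulated as unchanged, 10 were called. No log2 change below 1 was simulated, and the largest log2 fold change of a member was 0.83 (Etfdh). The simulation therefore does not show how often changes of the size seen in the members are missed. Ratios were compared by exact two-sided permutation over 10 arrangements (scipy 1.17.1). Absolute depth is unknown, so no counting intervals are given.

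Positions are from GENCODE (GRCm38), which held 16996 of the 17015 gene IDs, and promoter windows from RefSeq. Named genes were the 8 members, Nrip1, the called and the most and least changed genes of each list, ratio partners, and the 5 nearest profiles. Genes overlapping or next to a member, and the rest of the fast fiber list, were also named, after their values were seen. Some genes that meet these rules, and 1 marker list, are not reported. The members and lists were chosen with earlier results of these data known. Alternatives were other pseudocounts, minimum means, scalings, variance estimates and thresholds, a replicate block, and dropping each library. Rescaling over nuclear genes and the ratio of 4 dehydrogenases to Etfa were added after seeing the data.

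Groups share replicate numbers 1 and 2, but same-numbered libraries come from different mice.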

Additional observations from a re-analysis of the deposited data

How the results depend on the processing

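Of 120 values of the 8 log2 fold changes under other settings, 119 stayed above 0. The exception was Acad11, at -0.058 under TPM. Many of the 120 could not differ: other minimum means and variance estimates do not change a gene's log2 fold change. Rescaling by each library's median ratio to the geometric mean left it as reported, and the replicate block repeated the values without WT control replicate 3. The 119 is therefore no count of independent checks. The count of 1 called gene (Etfa) became 0 with a pseudocount of 0.01, no minimum on the mean, TPM, rescaling over nuclear genes, eBayes without trend or with robust estimation, an adjusted p of 0.01 or less, and in each fit that left out 1 library (0 to 0). The count at an unadjusted p of 0.05 or less became 4 under TPM, and was 6 to 8 with 1 library left out. Genes called higher over the whole table numbered 22 without trend, 30 under TPM, 6 to 55 with 1 library left out, and 45 as reported. The cause was not tested.

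With the replicate block 0 of the 8 genes were called (Etfa 0.75, adjusted p = 0.254, limma), and 18 genes were called higher and 4 lower, against 45 and 10. The numbers were not taken as pairs, as same-numbered libraries come from different mice. Deviations of same-numbered libraries from their group means correlated at 0.06 and 0.10, and those of other pairs at -0.10 to 0.03. The deviations of the 2 labelled libraries mirror each other, so these correlations are not separate checks and cannot decide whether the numbers mark pairs.

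Under TPM the median log2 fold change was 0.31 for the 8 genes, 0.0076 for the ETF-linked dehydrogenases, -0.19 for flavoprotein maturation and flavin supply, -0.34 for the other isomerases and reductases, 0.41 for the carnitine shuttle and core beta-oxidation, and -0.084 for the complex I assembly partners (0.29 over nuclear genes). With 1 library left out, the 8 genes ranged from 0.55 to 0.68, flavoprotein maturation from 0.00 (without WT control replicate 3) to 0.19 (without WT control replicate 2), and the other isomerases and reductases from -0.23 (without skmNrip1-/- replicate 1) to 0.14 (without skmNrip1-/- replicate 2). The ratio differences kept their sign, at 0.34 to 0.51 for Etfa/Etfb, 0.67 to 0.97 for Decr1/Decr2, 0.12 to 0.40 for Eci2/Eci1 and 0.29 to 0.60 for Acad11/Acad10, except Etfdh/Etfa (-0.05 to 0.16) and Acad9/Acadvl (-0.15 to 0.15).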
